A study of Mus musculus with 292 samples.

Results

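The 39 genes described here encode subunits of the oxidative phosphorylation machinery of mitochondria, proteins that help to build it, or relatives of its subunits. They were chosen by symbol alone: a gene was taken where its annotated symbol begins with Nduf, Sdh (a to d), Uqcr, Cox followed by 4 to 8, or Atp5. They make up 39 of the 10835 genes that could be named on the array, and 39 of the 96 protein-coding mouse genes whose symbol meets the rule. Complex I had 17 members, complex IV had 14 and complex V had 8, while genes of complexes II and III were not analysed here. The 39 genes were measured by 47 probes, and for the 6 genes with several probes the one with the largest standard deviation (SD) over all arrays was used.

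The samples were brains of 292 F2 mice, females and males, from an intercross in both directions of C57BL/6J with C3H/HeJ, both inbred strains. Every mouse ate chow with 4% fat until 8 weeks of age, and then for 12 weeks a Western diet, in which fat made up 42% and cholesterol 0.15%. Tissue was taken at 20 weeks of age after a 12-hour fast. The labels used here put all mice in 1 group and give no sex, genotype or diet contrast for single animals, so there is no control group. Each array compared 1 mouse brain with a pool of RNA from all samples, and each value is treated here as the log10 ratio of the mouse over that pool, which is the likely reading, since the labels state neither base nor direction.

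Oxidative phosphorylation passes electrons from NADH to oxygen and uses the energy to make ATP. Complex I takes electrons from NADH, complex IV (cytochrome c oxidase) hands them to oxygen, and complex V (ATP synthase) makes ATP from the proton gradient that the respiratory complexes build. Neurons depend on this pathway for most of their ATP. Each complex mixes subunits encoded in the nucleus, as all 39 genes here are, with subunits encoded in mitochondrial DNA. Several complex IV subunits exist in a widely expressed form and a form typical of heart and skeletal muscle.

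The 292 arrays fell into 3 sets, called batches A, B and C here, that were recognised by which probes had no value throughout. The labels do not name them as batches and do not say what set them apart. Batch C held 141 arrays of mice numbered 213 to 362, batch B held 77 arrays of mice numbered 54 to 212, and batch A held 74 arrays of mice numbered 51 to 196. The sample descriptions had 2 wordings, of which form 2 was used for all of batch B and form 1 for all of batches A and C. Array medians lay between -0.00726 and 0.0133 and array SDs between 0.0437 and 0.199. Pairs of arrays had correlations with a median of 0.109 and a range of -0.638 to 0.795, and 3.39% of pairs lay under -0.3. These correlations are no check of the direction of the ratio. Turning the sign of all values would reverse each higher and lower below, and would leave the correlations between genes as they are. The Y-linked gene Eif2s3y had a mean linear ratio of 0.79 with the direction used here and of 21.6 with the sign turned (a mean of 1 is what a pool of all mice would give). In a bulk brain sample, fewer cells of a type and less RNA per cell cannot be told apart.

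The members varied little between mice. Their SD over the 292 arrays had a median of 0.0520 on the log10 scale, which is a factor of 1.13, against 0.0513 for all named genes. It ran from 0.0241 for Ndufa11, an accessory subunit of complex I, to 0.100 for Atp5c1, the gamma subunit of the rotating stalk of ATP synthase. By complex, the median SD was 0.0385 for complex I, 0.0579 for complex IV and 0.0573 for complex V. Against the pool, 0 of the 39 members had a mean that differed at an adjusted p under 0.05 and by at least 1.2-fold, beside 0.586% of all probes. On the adjusted p alone 25 members differed (9 higher and 16 lower), which is 64.1% beside 68.4% of all probes (36.9% higher and 31.5% lower).

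How the members moved together differed by complex. Correlations were taken over the 292 mice after each batch had been centred on its own mean, so they are not set by the differences between batches. The 741 pairs of members had a median r of 0.0995, against -0.0025 for the 58693195 pairs of all named genes. An r above 0.3 was found for 30.2% of the member pairs, against 9.34% of all gene pairs. Within complex IV 46.2% of pairs lay above 0.3 and 0% below -0.3, and between complexes IV and V 52.7% lay above 0.3. Within complex I the share above 0.3 was 15.4%. Complex V split, with 46.4% of its pairs above 0.3 and 32.1% below -0.3. The member with the highest median r to its own complex was Ndufb11 (0.185) in complex I, Cox7a2 (0.574) in complex IV and Atp5e (0.499) in complex V. The lowest was Ndufs1 (-0.101), Cox7a2l (-0.0206) and Atp5h (-0.498) in the same 3 complexes.

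The difference from all genes was present in each batch. Among member pairs the share above 0.3 was 27.8% in batch C, 32.5% in batch B and 35.0% in batch A. The shares for all gene pairs were 10.4%, 14.0% and 14.8% in the same 3 batches. Pairs that share a gene are not independent, so these shares are a description without a test.

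**Figure D1:**
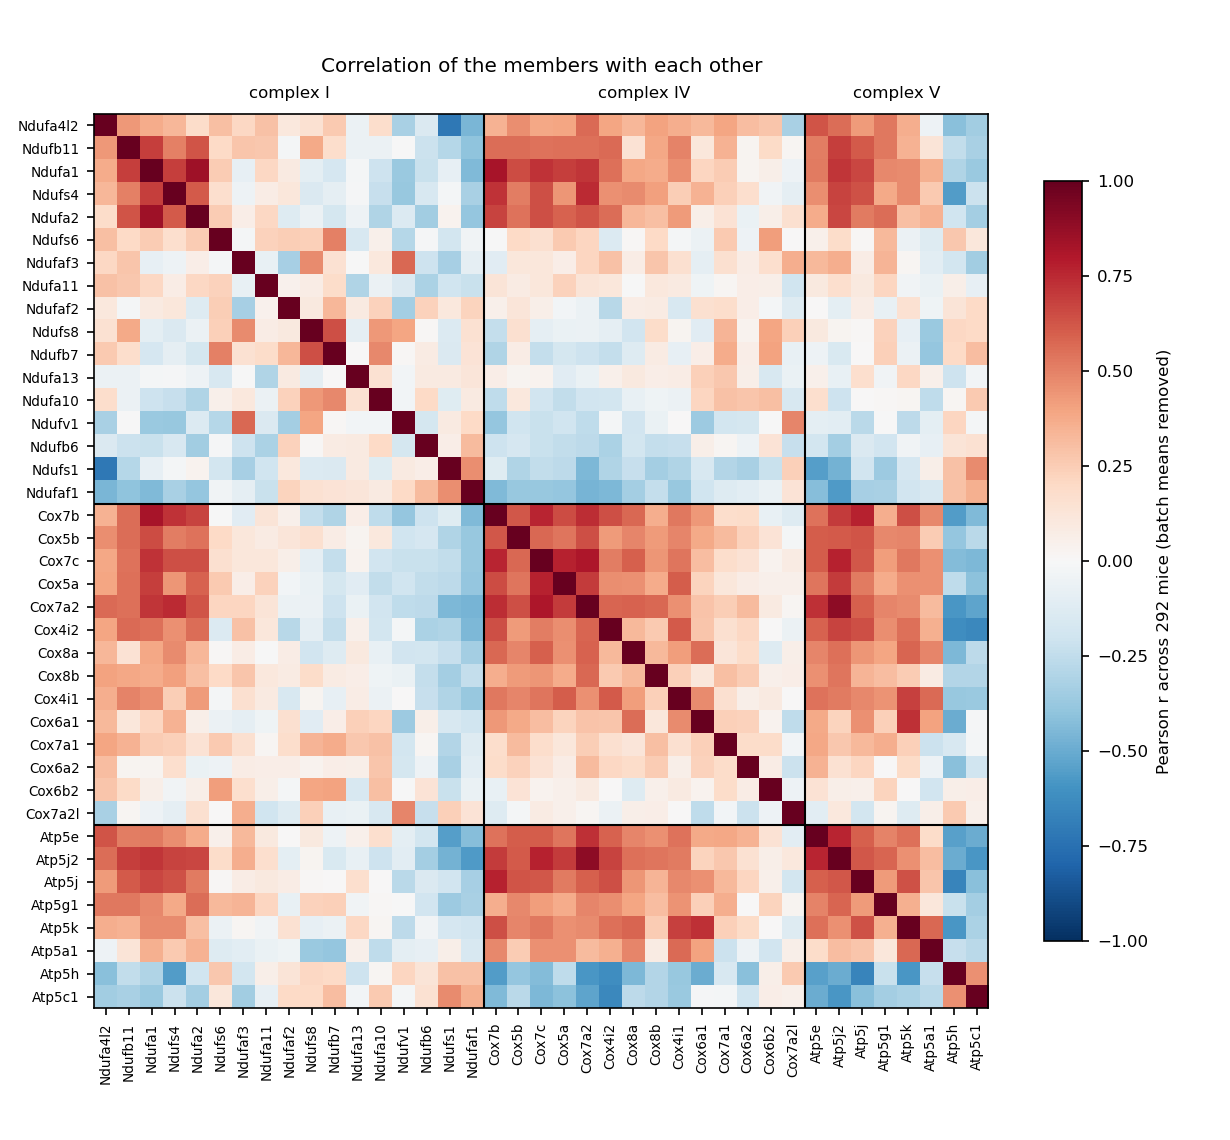
Pearson correlation of each pair of the 39 members over 292 mice, with values centred within batches. Rows and columns are the genes grouped by complex, and the colour scale runs from negative to positive r. A broad block of positive values joins most of complex IV with Atp5e, Atp5g1, Atp5j, Atp5j2 and Atp5k of complex V, while Atp5h, Atp5c1 and Ndufaf1 run against it.

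A large block held 19 members, each with an r above 0.3 to at least 15 of the 38 others. It comprised 5 of 17 members of complex I (Ndufa1, Ndufa2, Ndufa4l2, Ndufb11 and Ndufs4), 9 of 14 of complex IV (Cox4i1, Cox4i2, Cox5a, Cox5b, Cox7a2, Cox7b, Cox7c, Cox8a and Cox8b) and 5 of 8 of complex V (Atp5e, Atp5g1, Atp5j, Atp5j2 and Atp5k). A further 3 members had an r below -0.3 to at least 15 others: Ndufaf1, an assembly factor of complex I, Atp5c1, and Atp5h, which encodes subunit d of the peripheral stalk of ATP synthase. The other 17 members belonged to neither, and 11 of them were of complex I. These groups were drawn after the correlations were seen and carry no test. They also followed the first principal component of the probes that are no member, the main axis of variation among arrays. Each block member had a negative r with it, from -0.279 (Ndufa2) to -0.792 (Atp5e). Ndufaf1, Atp5c1 and Atp5h had 0.572, 0.603 and 0.493. The mean of all members had an r of -0.615 with it and of 0.544 with the array median, after centring. Whether the block holds apart from these was not tested. Some of the 17 formed small groups of their own. The accessory subunits Ndufb7 and Ndufs6 had an r of 0.504, and Ndufb7 and Ndufs8, a core subunit that carries iron-sulphur clusters, had an r of 0.644 (0.634 without centring, Spearman's rho 0.611).

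The tightest pair joined different complexes. Cox7a2, the widely expressed form of complex IV subunit VIIa, and Atp5j2, subunit f of the membrane part of ATP synthase, had an r of 0.894 after centring, and of 0.794 in batch C, 0.908 in batch B and 0.936 in batch A. Without centring their r was 0.899 and rho 0.881, and r was 0.890 without the 2 mice farthest from the median. Cox7a2 ranged from -0.160 to 0.115 around a median of -0.0503 in batch C, from -0.286 to 0.233 around -0.0165 in batch B, and from -0.198 to 0.262 around -0.0139 in batch A. Atp5j2 ranged from -0.183 to 0.0973 around -0.0516 in batch C, from -0.193 to 0.209 around -0.0139 in batch B, and from -0.185 to 0.240 around -0.0175 in batch A. The medians of both genes were lowest in batch C, and the ranges of the 3 batches overlapped.

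Other close pairs lay within and across complexes. Ndufa1 and Ndufa2, small accessory subunits of complex I on the X chromosome and chromosome 18, had an r of 0.844 (0.809 without centring, rho 0.805). Ndufa1 and Cox7b, a small complex IV subunit that is also X-linked, had an r of 0.824 (0.811 without centring, rho 0.794). Cox7a2 and Cox7c, another small subunit of complex IV, had an r of 0.810 (0.799 without centring, rho 0.764). These pairs, the tightest pair and that of Ndufb7 and Ndufs8 were named for the size of their r, so no test is given.

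The clearest opposition among the genes grouped under complex I was that of Ndufa4l2, placed there by its symbol alone, and Ndufs1. Ndufs1 encodes the largest core subunit, which carries iron-sulphur clusters on the path of electrons from NADH. Ndufa4l2 encodes a protein related to a small respiratory subunit and known for its rise in low oxygen. Their r was -0.715 after centring and -0.759 without (rho -0.703, and -0.755 without the 2 farthest mice). It was -0.463 in batch C, -0.830 in batch B and -0.799 in batch A. In a fit over all probes with batch as a term, 28 of the 38 other members rose with Ndufa4l2 and 7 fell, beside 37.4% and 26.9% of all probes. Within complex V, Atp5h and Atp5j, which encode the stalk subunits d and F6, had an r of -0.662 after centring (-0.442 in batch C, -0.746 in batch B and -0.728 in batch A) and of -0.695 without (rho -0.645). Both pairs were named for their low r, so no test is given. Atp5h and Atp5j encode parts of 1 structure, yet mice with more Atp5h RNA relative to the pool tended to have less Atp5j RNA. The genes of each pair also had opposite signs of r with the first principal component described above. It was 0.829 for Ndufs1 and -0.744 for Ndufa4l2, and 0.493 for Atp5h and -0.411 for Atp5j. Whether the oppositions hold apart from that component was not tested.

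**Figure D2:**
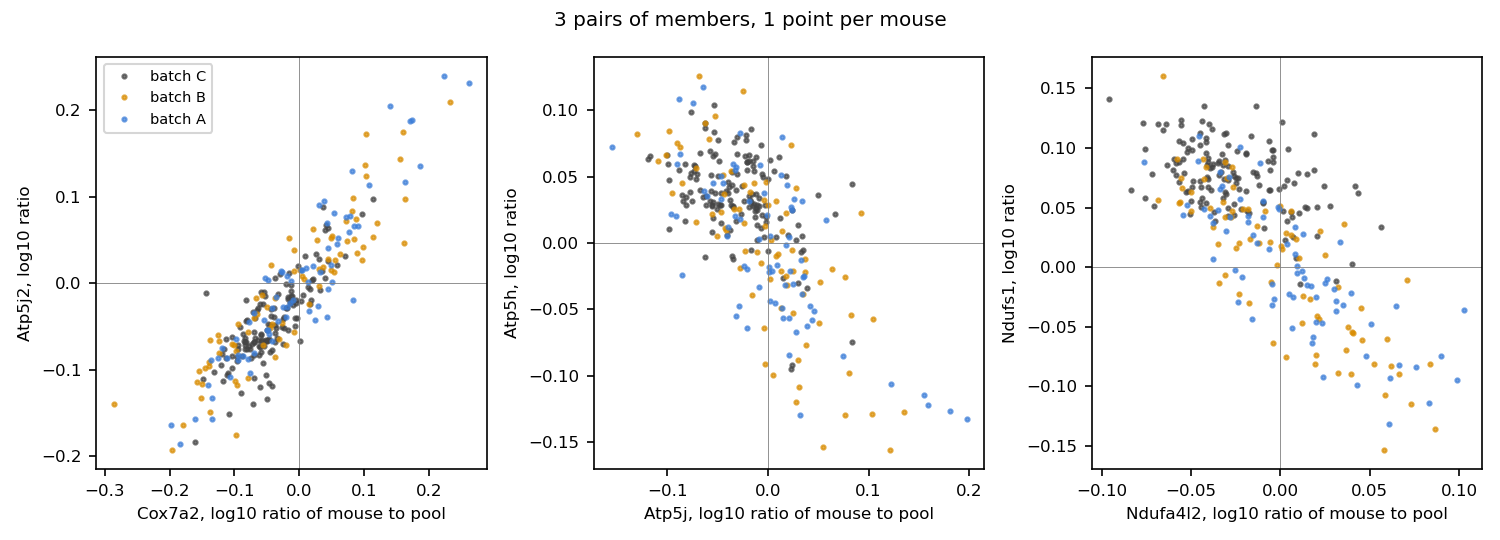
Log10 ratio to the pool of 1 member against another in each of 292 mice, coloured by batch, for Cox7a2 and Atp5j2 (r = 0.894), for Atp5h and Atp5j (r = -0.662) and for Ndufs1 and Ndufa4l2 (r = -0.715). Each point is 1 mouse, and r is over values centred within batches. The first pair rises along a narrow line and the other two fall, in each batch.

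Promoter windows of 32 of the 39 genes were matched in RefSeq (GRCm38.p6), each from 250 bases before to 50 bases after an annotated start. Windows for Ndufs1, Ndufa4l2, Cox4i1, Cox4i2, Cox6a2, Atp5a1 and Ndufa2 were not analysed here. Exact matches were searched on both strands for GCGCA followed by any base and GCGC, a core of sites of NRF1, which is a known activator of respiratory chain genes, for CCGGAAG, a core of sites of GABPA (also called NRF2), for AAGATGGCG, a core of sites of YY1, for TCAAGGTCA, a site of the oestrogen-related receptor ERRA, for GGGGCGGGG, a site of SP1, and for TATAAA, the TATA box. NRF1 matches were found in 6 of 32 member genes (18.8%), against 5.19% of all genes with a window. GABPA matches were found in 10 member genes (31.2%), against 9.93% of all genes, and YY1 matches in 4 (12.5%), against 1.64%. TATAAA was found in 2 (6.25%), against 15.7% of all genes. The SP1 pattern was found in 5 (15.6%), against 12.9%, and the ERRA pattern in 0, against 0.466%. The NRF1 pattern matches on both strands at the same place where its free base is T, and such a place was counted once per gene.

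The 3 windows shown first are those of the members that hold both an NRF1 and a GABPA match, and their r with each other had both signs. Cox6a1, the widely expressed form of complex IV subunit VIa, and Atp5k, subunit e of ATP synthase, had an r of 0.733 (0.621 without centring, rho 0.607). Atp5h had an r of -0.497 with Cox6a1 and of -0.579 with Atp5k. The windows lie on chr5:115348909-115349208, chr5:108434350-108434649 and chr11:115419870-115420169, all on the minus strand, and are printed 5′ to 3′ in the direction of the gene, with matches to the searched patterns in capitals.
Cox6a1: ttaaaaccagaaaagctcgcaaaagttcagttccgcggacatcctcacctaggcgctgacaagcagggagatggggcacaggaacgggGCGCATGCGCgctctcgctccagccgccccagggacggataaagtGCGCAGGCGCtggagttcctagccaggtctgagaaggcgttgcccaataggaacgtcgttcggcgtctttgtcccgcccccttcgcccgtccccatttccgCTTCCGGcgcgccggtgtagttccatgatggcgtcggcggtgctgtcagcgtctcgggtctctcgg
Atp5k: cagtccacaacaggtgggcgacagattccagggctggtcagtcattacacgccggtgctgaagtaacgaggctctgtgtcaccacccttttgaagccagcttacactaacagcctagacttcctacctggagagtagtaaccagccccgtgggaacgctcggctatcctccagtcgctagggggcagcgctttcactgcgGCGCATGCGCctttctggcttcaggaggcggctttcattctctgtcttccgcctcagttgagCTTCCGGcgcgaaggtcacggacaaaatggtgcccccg
Atp5h: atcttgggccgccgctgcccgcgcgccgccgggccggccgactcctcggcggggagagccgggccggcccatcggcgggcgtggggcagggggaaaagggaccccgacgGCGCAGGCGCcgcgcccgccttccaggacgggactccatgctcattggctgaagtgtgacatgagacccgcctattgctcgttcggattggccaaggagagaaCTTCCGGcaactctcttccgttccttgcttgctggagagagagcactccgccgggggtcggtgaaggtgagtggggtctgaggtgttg
The capitals in Cox6a1 mark NRF1 matches that begin 162 and 117 bases before the start and a GABPA match 16 bases before it. In Atp5k an NRF1 match begins 50 bases before the start and a GABPA match 12 bases after it. In Atp5h the NRF1 match begins 141 bases and the GABPA match 38 bases before the start.

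The windows of the tightest pair had no searched pattern in common. The windows of Atp5j2 (chr5:145191492-145191791, minus strand) and Cox7a2 (chr9:79759804-79760103, minus strand) follow in the same format.
Atp5j2: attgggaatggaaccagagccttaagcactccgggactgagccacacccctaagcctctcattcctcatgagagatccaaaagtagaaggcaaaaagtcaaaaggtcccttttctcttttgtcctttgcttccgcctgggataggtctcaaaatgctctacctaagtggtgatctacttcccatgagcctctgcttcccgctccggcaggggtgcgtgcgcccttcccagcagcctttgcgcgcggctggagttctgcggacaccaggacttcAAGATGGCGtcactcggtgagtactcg
Cox7a2: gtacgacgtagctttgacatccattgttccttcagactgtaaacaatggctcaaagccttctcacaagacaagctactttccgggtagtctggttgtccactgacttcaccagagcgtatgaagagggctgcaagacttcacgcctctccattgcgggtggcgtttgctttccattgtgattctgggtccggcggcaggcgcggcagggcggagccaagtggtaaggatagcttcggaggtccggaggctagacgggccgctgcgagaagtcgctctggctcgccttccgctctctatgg
The capitals in Atp5j2 mark a YY1 match that begins 23 bases after the start, and the Cox7a2 window holds none of the searched patterns. A match describes the letters in this window only, and binding was not measured. Whether members that share a pattern also vary together was not tested.

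Between the 2 batches with the lower mouse numbers, the members that differed were muscle forms of cytochrome c oxidase subunits. In batch B minus batch A, 3 of 39 members were called, beside 1.30% of all probes, and all 3 were lower in batch B, beside 0.696% of all probes lower and 0.599% higher. They were Cox8b, Cox6a2 and Cox7a1, the forms of subunits VIII, VIa and VIIa known from heart and skeletal muscle. The widely expressed partner of each was not called. Comparisons between batches were added after the data had been seen. Y-linked genes also differed between batches B and A, so batch and sex cannot be told apart in this comparison (values below).

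Cox8b values ranged from -0.217 to 0.321 around a median of -0.0621 in batch C, from -0.223 to 0.244 around -0.0441 in batch B, and from -0.139 to 0.303 around 0.00735 in batch A. Cox6a2 ranged from -0.197 to 0.220 around -0.0449 in batch B, and from -0.141 to 0.249 around 0.00901 in batch A. Cox7a1 ranged from -0.104 to 0.0926 around -0.00578 in batch B, and from -0.0925 to 0.143 around 0.0136 in batch A. The batches overlapped widely for each gene, with the centre of batch B below that of batch A. The mean of Cox8b was 0.0700 lower on the log10 scale in batch B than in batch A (a difference of -0.0700, SE 0.0135, 1.17-fold, adjusted p = 0.000126). For Cox6a2 the difference was -0.0501 (SE 0.0125, 1.12-fold, adjusted p = 0.0109), and for Cox7a1 it was -0.0221 (SE 0.00595, 1.05-fold, adjusted p = 0.0265).

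The widely expressed forms differed by -0.0250 for Cox8a (adjusted p = 0.372), 0.00408 for Cox6a1 (adjusted p = 0.983) and -0.0114 for Cox7a2 (adjusted p = 0.957) and none was called. The difference between a muscle form and its partner was not tested. The 3 muscle forms all lie on chromosome 7, as does Cox6b2, the testis form of subunit VIb, whose difference was -0.00437 (adjusted p = 0.968). Their correlations with each other were 0.303 for Cox7a1 and Cox8b, 0.252 for Cox6a2 and Cox8b, and 0.185 for Cox6a2 and Cox7a1. The same 3 genes were called with the array SD or the first principal component in the fit and with arrays centred or scaled. Each has 1 probe.

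Of 6 listed skeletal muscle markers 3 were measured, and none was called between batches B and A. The differences were -0.00283 for Ckm (muscle creatine kinase, adjusted p = 0.983), 0.00916 for Mb (myoglobin, adjusted p = 0.975) and -0.0148 for Tnnt3 (fast muscle troponin T, adjusted p = 0.974). The brown fat markers Ucp1 and Cidea differed by 0.00307 and 0.0155 and were not called. Over mice, after centring, some of these markers varied with the muscle forms. Ckm had an r of 0.320 with Cox8b, 0.227 with Cox6a2 and 0.00367 with Cox7a1, Tnnt3 had 0.353, 0.345 and 0.114 with the same genes, and Mb had 0.160, 0.0967 and 0.164. Cidea had 0.274, -0.104 and 0.319. Pvalb, a marker of fast spiking interneurons that fast muscle also makes, had an r of 0.411 with Cox8b, 0.0278 with Cox6a2 and 0.410 with Cox7a1. Values of this size were not particular to muscle genes. With Cox8b, Cox6a2 and Cox7a1 the neuron marker Syt1 had an r of -0.450, -0.425 and -0.375. The microglia marker Trem2 had 0.317, 0.393 and 0.281, and Esrra, a listed regulator, had 0.447, 0.373 and 0.250. Other genes did differ between batches B and A. Hccs, listed with the electron carriers and no member, differed by 0.174 (SE 0.00909, adjusted p = 8.55e-50). Respiratory genes outside the 3 muscle forms thus also differed. The pituitary hormone gene Prl differed by -0.508. The Y-linked genes Eif2s3y and Kdm5d had means of 0.253 and 0.233 in batch B, against -1.60 and -1.10 in batch A. Their medians were 0.281 and 0.266 in batch B, against -1.65 and -1.10 in batch A. A difference between these 2 batches therefore cannot be told apart from one between the sexes. In batch C the means were -0.748 and -0.402, and the part of sex in comparisons with batch C was not tested. The part of any of these genes in the differences of the muscle forms was not tested.

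**Figure D3:**
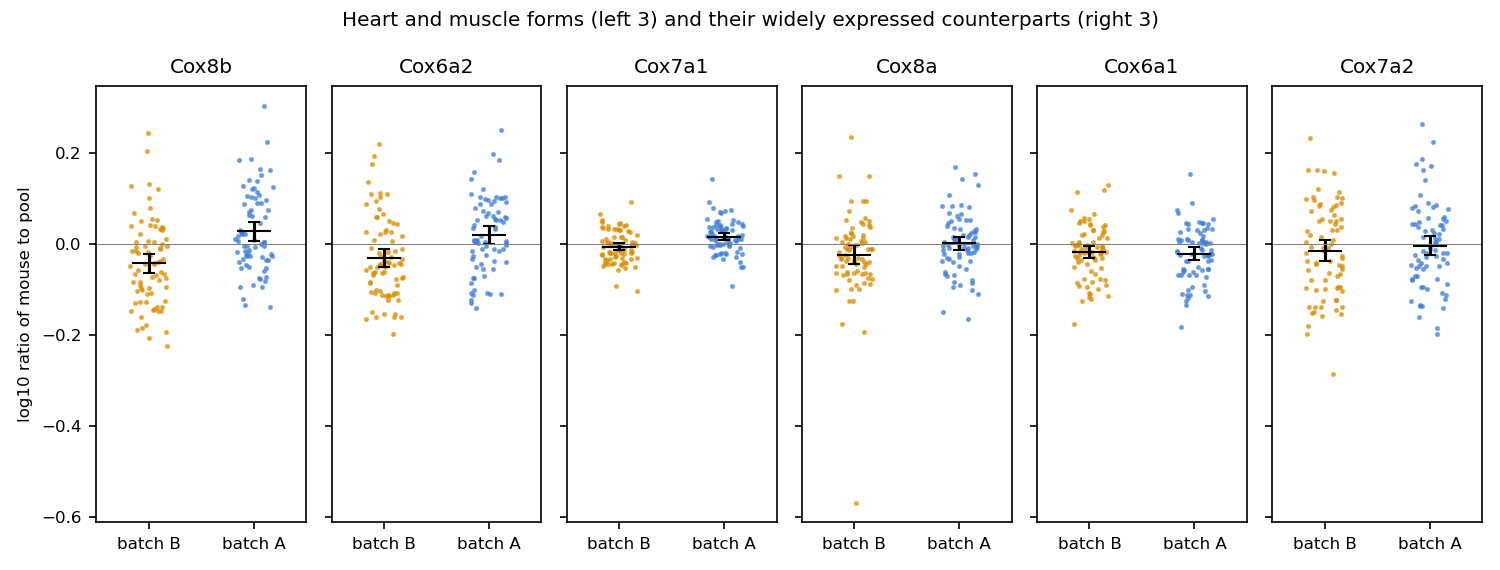
Log10 ratio to the pool for Cox8b, Cox6a2 and Cox7a1, known from muscle, and their widely expressed partners Cox8a, Cox6a1 and Cox7a2, with batch B left of batch A. Each point is 1 mouse (77 in batch B, 74 in batch A), and bars give the mean with its 95% interval. The means of the muscle forms lie lower in batch B, and the points of the batches overlap in every panel.

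The muscle forms and their partners could also be compared over mice, since 5 pairs of related genes and the partner subunits Cox5a and Cox5b were measured, 6 of 21 listed pairs. The r given first for these pairs are without centring, with the r after centring beside them. Cox4i1 and Cox4i2, the widely expressed and the lung-enriched, oxygen-sensitive form of subunit IV, had the highest r, 0.617 (rho 0.620, 0.616 without the 2 farthest mice, 0.611 after centring). Cox5a and Cox5b, which sit side by side in the same enzyme, had an r of 0.535 (rho 0.495, 0.510 without the 2 farthest, 0.535 after centring). Cox7a1 and Cox7a2 had an r of 0.289 (rho 0.320, 0.244 after centring) and Cox8a and Cox8b an r of 0.275 (rho 0.241, permutation p = 2e-05, 0.325 after centring), so their order depends on the centring. Of the called pairs Cox6a1 and Cox6a2 had the lowest r either way, 0.132 (permutation p = 0.02, rho 0.156) and 0.229 after centring, with an adjusted p of 0.000224 with batch in the fit. Cox7a2 and Cox7a2l, a relative that takes part in joining respiratory complexes into larger assemblies, had an r of -0.00867 (permutation p = 0.9, rho -0.0164, 0.0167 after centring), and of 0.271 in batch C alone, so no relation held across batches.

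The subunit VIII pair also differs in its promoter windows, shown here because 1 form is the widely expressed and the other the muscle one. The window of Cox8b (chr7:140900397-140900696, minus strand) and that of Cox8a (chr19:7217567-7217866, minus strand) read as follows.
Cox8b: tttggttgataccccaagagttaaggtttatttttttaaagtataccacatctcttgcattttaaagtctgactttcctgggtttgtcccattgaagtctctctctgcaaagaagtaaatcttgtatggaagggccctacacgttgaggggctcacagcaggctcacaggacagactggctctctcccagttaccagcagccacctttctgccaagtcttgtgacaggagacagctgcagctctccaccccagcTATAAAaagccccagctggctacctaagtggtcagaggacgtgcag
Cox8a: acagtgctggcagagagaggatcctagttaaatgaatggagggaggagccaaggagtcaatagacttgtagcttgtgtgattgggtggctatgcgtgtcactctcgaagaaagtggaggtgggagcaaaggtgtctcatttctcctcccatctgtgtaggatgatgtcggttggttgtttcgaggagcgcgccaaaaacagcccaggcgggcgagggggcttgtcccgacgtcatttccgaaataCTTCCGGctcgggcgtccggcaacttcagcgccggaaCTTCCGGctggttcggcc
The capitals in Cox8b mark a TATAAA match that begins 4 bases after the annotated start, and its GC content is 48.3%. Those in Cox8a mark GABPA matches that begin 5 bases before and 32 bases after the start, with a GC content of 56.0%, against a median of 52.7% over all windows.

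Batch C differed from the others in most genes of the array, and the members moved with it in both directions. In batch C minus batch A, 28 of 39 members were called (11 higher and 17 lower, 71.8%), beside 61.7% of all probes (28.2% higher and 33.4% lower). Complex I had 11 of 17 called (6 higher, 5 lower), complex IV 9 of 14 (2 higher, 7 lower) and complex V 8 of 8 (3 higher, 5 lower). With the first principal component of the probes that are no member (the main axis of variation among arrays) in the fit, 24 members were called and the split was 20 higher and 4 lower, so the balance of directions depends on that setting. The share of all probes called in that fit is not given here, so the split cannot be read as particular to the members.

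ATP synthase held the widest differences. Atp5c1 ranged from -0.0726 to 0.450 around a median of 0.143 in batch C, from -0.191 to 0.154 around 0.00916 in batch B, and from -0.181 to 0.160 around -0.0104 in batch A. The batch C median lay near the highest values of the other batches, and the ranges overlapped. The difference between batches C and A was 0.141 (SE 0.0104, 1.38-fold, adjusted p = 3.6e-31) with the probe used, the one of largest SD. Of the 4 Atp5c1 probes the one of smallest SD gave 0.0850, a smaller change than that of Atp5e, described next, and the probe means in batch C were 0.135, 0.131, 0.0855 and 0.0856. Atp5e, the epsilon subunit of the same central stalk, went the other way, with a range of -0.232 to 0.0759 around -0.113 in batch C, of -0.158 to 0.148 around -0.0274 in batch B, and of -0.152 to 0.242 around 0.00188 in batch A. Its difference was -0.110 (SE 0.00962, 1.29-fold, adjusted p = 4.64e-24). Atp5c1 and Atp5e were also the only 2 of the 39 members called against the pool at 1.2-fold in batch C alone (means of 0.135 and -0.104), beside 6.96% of all probes (3.47% higher and 3.49% lower).

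The other complex V genes called between batches C and A were Atp5a1, the catalytic head's alpha subunit (0.0560), and Atp5h (0.0401), both higher in batch C, and Atp5j2 (-0.0436), Atp5k (-0.0394), Atp5j (-0.0316) and Atp5g1 (-0.0177), a gene for the rotating c ring, all lower. In complex I, Ndufs1 ranged from -0.0144 to 0.141 around 0.0767 in batch C, from -0.154 to 0.161 around 0.0178 in batch B, and from -0.132 to 0.110 around -0.00671 in batch A. Its difference between batches C and A was 0.0778 (SE 0.00675, 1.2-fold, adjusted p = 2.77e-24). The batch C mice lay almost wholly above 0 for this gene, while the other batches spread to both sides. In complex IV, Cox8b (-0.0862, adjusted p = 2.03e-11) and Cox6a2 (-0.0817, adjusted p = 7.31e-12) were again lower. With the first principal component in the fit, Atp5e (0.00779), Cox8b (0.00344) and Ndufs1 (-0.00867) changed sign. In batch C minus batch B, 25 members were called (13 higher and 12 lower), beside 59.7% of all probes (27% higher and 32.7% lower). The genes at the ends were Atp5c1 (0.137), Ndufs1 (0.0747) and Atp5a1 (0.0652) on the higher side and Atp5e (-0.0870), Ndufa10 (-0.0389), an accessory subunit of complex I, and Atp5j2 (-0.0343) on the lower.

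**Figure D4:**
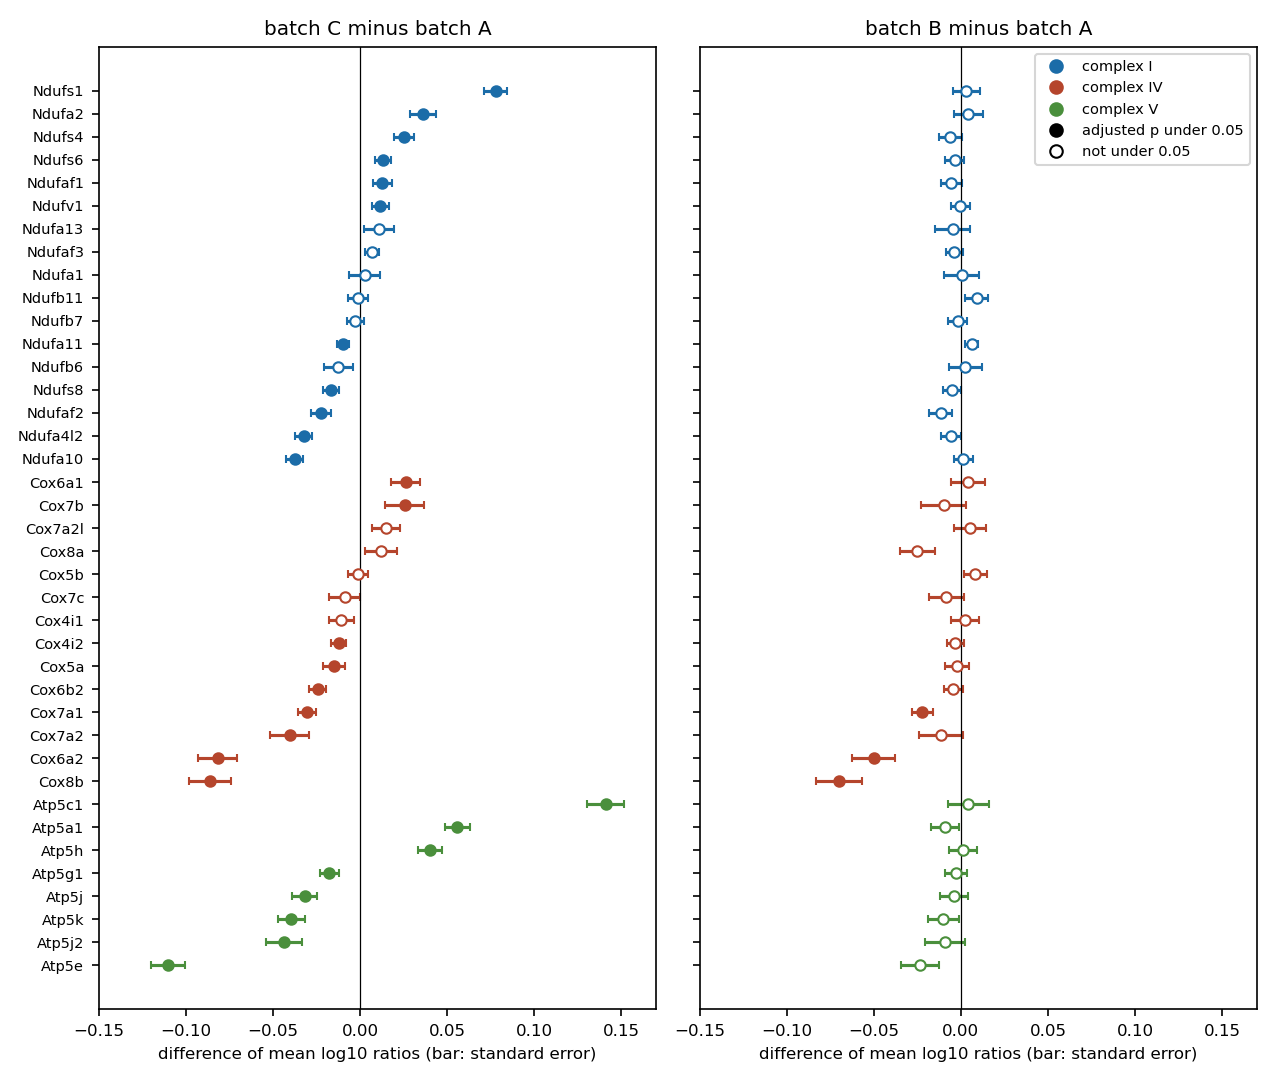
Difference in mean log10 ratio for each of the 39 members, batch C minus batch A in the left panel and batch B minus batch A in the right panel. Points are estimates, bars are SE, and filled points have an adjusted p under 0.05. In the left panel 28 members are filled, led by Atp5c1 at 0.141 and Atp5e at -0.110, and in the right panel 3 are filled.

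Between form 2 and form 1 of the description, which sets batch B against batches A and C together, 16 members were called (6 higher and 10 lower), which is 41.0% beside 45.4% of all probes. Centring arrays on their median gave 4 higher and 11 lower, and scaling arrays to equal SD gave 4 higher and 12 lower. With mouse number in the fit 1 member, Cox8b, was called. The largest differences were those of Atp5c1 (-0.0882, or -0.0555 with its probe of smallest SD), Ndufs1 (-0.0479) and Atp5a1 (-0.0459) on the lower side and of Atp5e (0.0490) and Ndufa10 (0.0260) on the higher. Atp5j2 came next (0.0193) and was not called (adjusted p = 0.0954). An F test over the 3 batches called 30 members (76.9%), beside 64.0% of all probes. The means of the Y-linked genes Eif2s3y and Kdm5d were highest in batch B, and the part of sex in these comparisons was not tested.

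The slope of the members over the mouse number differed in sign between batches. The mouse number names the animal, and the labels do not say whether it follows birth, death or array date. Over all 292 mice 29 members had a slope (12 rising and 17 falling with the number), 74.4% beside 62.3% of all probes (28.5% rising and 33.8% falling). The 3 steepest rising were Atp5c1 (0.0720 per 100 mouse numbers, or 0.0407 with its probe of smallest SD), Ndufs1 (0.0367) and Atp5a1 (0.0326), and the 3 steepest falling were Atp5e (-0.0460), Cox8b (-0.0228) and Cox6a2 (-0.0195). With batch in the fit 4 members were called, 10.3% beside 18% of all probes (8.8% rising and 9.24% falling). Cox6a2 (0.0328), Ndufa2 (0.0206) and Cox5b (0.0161) rose with the number, and Ndufaf2, an assembly factor of complex I, fell (-0.0184).

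Within batch C 17 members had a slope (2 rising, 15 falling), 43.6% beside 25.3% of all probes (11.4% rising and 13.9% falling). Batch B gave 10 (8 rising, 2 falling), 25.6% beside 21.6% (11.3% rising and 10.3% falling). Batch A gave 4 (3 rising, 1 falling), 10.3% beside 12.8% (5.75% rising and 7% falling). Of the 39 slopes 10 were above 0 in batch C, 30 in batch B and 31 in batch A. The median slope per 100 mouse numbers was -0.0102 for members in batch C, against -0.00129 for all probes. It was 0.0157 for members in batch B against 0.00188 for all probes, and 0.0175 in batch A against 0.00117.

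The slopes of batches C and B differed for 20 of 39 members (51.3%), beside 34.9% of all probes, by a test of the difference itself that was added after the data had been seen. For 17 members (43.6%) the slope was lower in batch C, beside 19.7% of all probes, and for 3 (Atp5c1, Ndufaf1 and Ndufb7) it was higher, beside 15.2%. Complex IV had 8 of 14 lower and none higher, complex V 6 of 8 lower and 1 higher, and complex I 3 of 17 lower and 2 higher. Of the 19 members of the large block 16 were among the 17 that were lower. The block was drawn from correlations over the same mice, which include any slope within batches, so this overlap is no separate result.

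The largest differences were those of Atp5c1 and, in the other direction, Ndufa1. The Ndufa1 slope per 100 mouse numbers was -0.0466 in batch C (SE 0.00924), 0.0609 in batch B (SE 0.0145) and 0.0625 in batch A (SE 0.0186), and each was called. The difference between batches C and B was -0.107 (SE 0.0172, adjusted p = 1.15e-07). Cox7b differed by -0.0947 (adjusted p = 0.000403) and Atp5j2 by -0.0937 (adjusted p = 0.0001). Atp5c1 went the other way, with a slope of 0.0816 in batch C (SE 0.0116), -0.0364 in batch B (SE 0.0163) and -0.0214 in batch A (SE 0.0210), and a difference between batches C and B of 0.118 (adjusted p = 6.87e-07), or of 0.0740 with the Atp5c1 probe of smallest SD. Its slope was called in batch C but not in batches B or A. Ndufaf1 also had a higher slope in batch C, by 0.0424 (adjusted p = 0.000682), as had Ndufb7, by 0.0268 (adjusted p = 0.0185). Cox6a2, a muscle form, did not follow the block: its slope was 0.0541 in batch C (adjusted p = 0.000232) and 0.0245 in batch B, and their difference of 0.0296 was not called (adjusted p = 0.308).

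**Figure D5:**
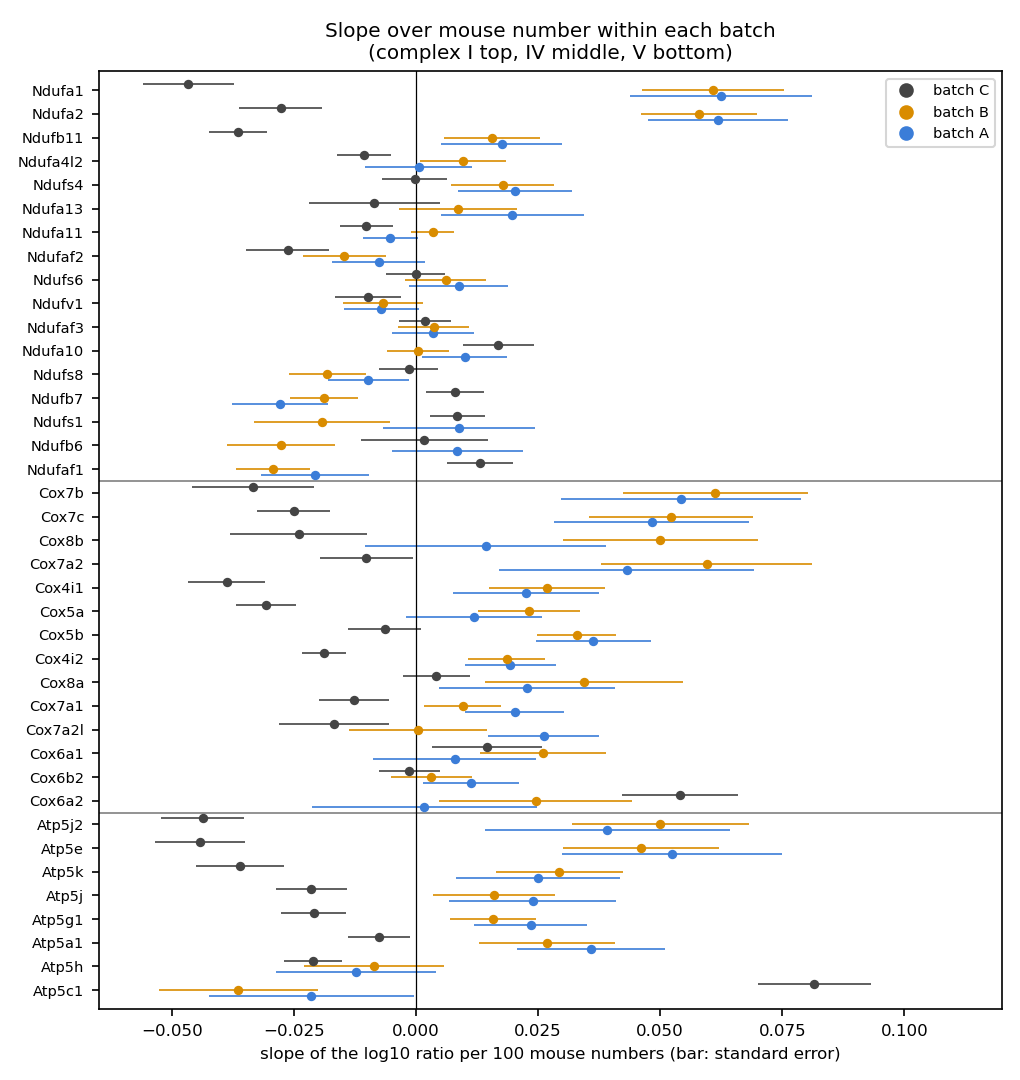
Slope of the log10 ratio per 100 mouse numbers for each member within batches C, B and A. Points are estimates and bars are SE. Most members lie below 0 in batch C and above 0 in batches B and A, with Atp5c1 on the other side.

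The members were then set against 1 gene of each complex, in a fit over all probes with batch as a term. Cox4i1, the main form of the subunit that stabilises cytochrome c oxidase, stood for complex IV. Of the 38 other members 22 rose with it and 6 fell, beside 37.8% and 30.1% of all probes. For Atp5a1 16 rose and 8 fell, beside 27.5% and 24.6% of all probes. For Ndufs1, chosen for complex I once the measured genes were known, 4 rose and 24 fell, beside 27.1% and 35.7% of all probes. Within complex I, 1 of the 16 other members rose with Ndufs1 and 7 fell, so it does not stand for its complex. With the first principal component in the fit, 19 members rose with Ndufs1 and 7 fell, beside 27.6% and 24.9% of all probes. The direction of the count over all members thus depends on the component, with which Ndufs1 had an r of 0.829. Cox4i1 and Atp5a1 rose together (r 0.409, rho 0.345, 0.402 without the 2 farthest mice, 0.565 after centring). Ndufs1 and Cox4i1 went apart (r -0.305, rho -0.334), and Ndufs1 and Atp5a1 had an r of 0.374 (rho 0.393) that was 0.0609 after centring and -0.0483 in batch A. With batch in the fit the adjusted p was 7.11e-24 for Cox4i1 and Atp5a1, 7.51e-07 for Ndufs1 and Cox4i1, and 0.370 for Ndufs1 and Atp5a1, whose relation was thus not called within batches. Before centring all 3 had a permutation p of 1e-05, the smallest that 100000 permutations can give, from mice shuffled across batches.

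Ndufs1 was also set against genes of the citric acid cycle, which makes the NADH that complex I uses. Of 16 listed genes 9 were measured, of which 6 rose with Ndufs1 and 1 fell, where 27.1% and 35.7% of all probes did so. They included Dld, the dehydrogenase subunit shared by the pyruvate and 2-oxoglutarate complexes (r 0.880), Suclg2 (r 0.565) and Suclg1 (r 0.524), subunits of succinyl-CoA ligase, and Pdha1, a subunit of pyruvate dehydrogenase (r 0.557). Mdh2, mitochondrial malate dehydrogenase, fell with it (r -0.307), and Cs, citrate synthase, was not called (r 0.0217, adjusted p = 0.765). Only 1 of the 9 rose with Cox4i1 (Idh3g, r 0.211) and 2 fell (Pdha1, r -0.373, and Dld, r -0.342). With Atp5a1, 1 rose (Suclg1, r 0.436) and 2 fell. The first principal component was not in these fits, nor in those with regulators and cell markers below. Ndufs1 had an r of 0.829 with that component. It also had the lowest median r with its own complex (-0.101). The mean of the complex I members had an r of 0.0172 with the mean of the 9 citric acid cycle genes after centring. The relation of Ndufs1 with these genes is thus not one of complex I as a whole.

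Known regulators of the pathway took different sides. Of 14 listed 12 were measured, of which 5 rose with Ndufs1 and 4 fell, 3 rose with Cox4i1 and 8 fell, and 3 rose with Atp5a1 and 3 fell. The shares of all probes are those given above for these 3 genes. Esrra, the oestrogen-related receptor that switches on respiratory genes, fell with Ndufs1 (r -0.736) and rose with Cox4i1 (r 0.337). Ppargc1b, a coactivator of the same genes, rose with Ndufs1 (r 0.428) and fell with Cox4i1 (r -0.445), whereas the related Ppargc1a rose with both (r 0.189 and 0.259). Tfb2m, a factor needed to transcribe mitochondrial DNA, had an r of 0.302 with Ndufs1, -0.553 with Cox4i1 and -0.390 with Atp5a1. Transcript levels of Tfam, which packages mitochondrial DNA, had an r of -0.00174 with Ndufs1 (not called, adjusted p = 0.982) and -0.137 with Cox4i1 (adjusted p = 0.0296). Of 36 listed assembly factors 13 were measured outside the members, of which 5 rose with Ndufs1 and 4 fell, 3 rose with Cox4i1 and 5 fell, and 1 rose with Atp5a1 and 3 fell, to be read beside the same shares.

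Some markers of brain cell types moved with the same genes. Of all probes 27.1% rose with Ndufs1 and 35.7% fell, and 37.8% rose with Cox4i1 and 30.1% fell. All 4 microglia markers fell with Ndufs1 (Tmem119, r -0.722), both measured neuron markers of 4 listed rose with it (Snap25, r 0.565, and Syt1, r 0.412), and all 3 measured astrocyte markers rose (Aqp4, r 0.640). Genes of fast spiking interneurons went the other way, as Pvalb (parvalbumin, r -0.464) and Kcnc1 (a potassium channel, r -0.137) both fell with Ndufs1. Of 3 oligodendrocyte and 3 endothelial markers 1 each fell with Ndufs1, and of 3 choroid plexus markers 1 rose. With Cox4i1 both neuron markers fell (Snap25, r -0.265, and Syt1, r -0.365), while Pvalb rose (r 0.491) and Kcnc1 was not called (r -0.0461, adjusted p = 0.494). Of the 4 microglia markers 1 rose with Cox4i1, and of the 3 astrocyte markers 2 fell. Of the 3 oligodendrocyte markers 1 rose, of the 3 endothelial markers 1 rose and 1 fell, and of the 3 choroid plexus markers 1 fell. The mean of the complex IV members had an r of -0.726 with the mean of the neuron markers after centring (-0.294 in batch C, -0.845 in batch B and -0.873 in batch A). Its r was -0.469 with the mean of the astrocyte markers, 0.325 with that of the microglia markers and 0.427 with that of the 2 interneuron genes. With the first principal component its r was -0.722. The mean of the complex I members had an r of -0.310 with that of the neuron markers, opposite in sign to Ndufs1. The part of these markers in the correlations between members was not tested. The mean of complex IV had an r of 0.825 with that of complex V and of 0.462 with that of complex I.

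Among the genes most alike to each member, other members stood beside genes of other functions. Taking the 3 named genes with the highest r after centring for each member, 15 of 117 (12.8%) were members, while members make up 0.36% of all named genes. Those for Ndufs1 were Dld (0.880), Polr2b, a subunit of RNA polymerase II (0.877), and Smc3, a subunit of cohesin (0.837). For Cox4i1 they were Tuba1b, an alpha-tubulin (0.809), Pebp1 (0.730) and Fam131a (0.698), and for Atp5a1 they were Ywhah, a 14-3-3 protein (0.800), Prnp, the prion protein gene (0.787), and Rtn1, a reticulon (0.739). For Atp5h they were Pkm, the glycolytic enzyme pyruvate kinase (0.861), M6pr, a sorting receptor for lysosomal enzymes (0.815), and Tmem185a (0.791). Further examples were chosen after their values were seen. The 3 for Cox7c were all members (Cox7a2, Atp5j2 and Cox5a), and the first for Cox4i2 was Mef2d, a transcription factor (0.919). The most alike gene to Cox7a2 was Atp5j2, followed by Sec61g (0.885), a subunit of the channel for secreted proteins, and Timm8b (0.842), a mitochondrial import protein.

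The values of 2 members fell into separate levels, 5.13% of 39, beside 6.57% of all probes. Ndufs1 had 25% of mice around -0.0508 and 75% around 0.0646, a 1.3-fold step, and Atp5h had 13.7% around -0.0813 and 86.3% around 0.0309, a 1.29-fold step. After centring within batches 0 members kept separate levels. Where several probes measured a member they mostly ran together, with an r of 0.971 for Ndufb11, 0.871 for Atp5k and 0.856 for Atp5h. The other 3 Atp5c1 probes had an r of 0.965, 0.659 and 0.808 with the one used. The probes did not run together for Ndufb6 (r 0.0772) and Ndufa13 (r 0.223), accessory subunits of complex I, and values of these genes rest on the probe chosen.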

How the data were processed

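The deposited value table held 23574 probes by 292 arrays, 1 array per mouse brain with the common pool in the other channel and no dye swap, per the labels. What the authors did to make these deposited values (background correction, normalization, filters) is not given in the sources used here. They were read as log10 ratios, mouse over pool, and used as deposited. The base and the direction are not stated in the labels, and array medians near 0 show only that the arrays are centred. Arrays have no read depth, and the number of mice limits the precision. That each array is a separate mouse comes from the labels.

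Probes missing on more than 5% of arrays (25) were dropped, and the 252 values still missing were set to their probe's mean. Of the probes, 13647 were annotated with 1 gene, 48 with several and 9854 with none, and 12645 of the 13647 were matched by gene ID to current symbols.

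Means, slopes and differences were fitted over 23549 probes with limma 3.58.1 (R 4.3.3), with Benjamini-Hochberg adjustment over all probes and a threshold of 0.05. Separate levels were Gaussian mixtures from mclust 6.1.1 with 1 SD shared by the levels, a BIC gain of at least 10, a separation of 3 SDs and a smallest share of 5%. Correlations used numpy 2.4.6 and scipy 1.17.1, with 100000 permutations, two-sided. In simulated data a slope on a member of 0.2 SD was recovered for 43% of changed probes and of 0.4 SD for 100%, over 23549 probes.

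The members, the gene lists and the tests were chosen with earlier results of these data known. The 3 batches and the comparisons between them, and Ndufs1 as the gene for complex I (the genes listed for it were not among the named genes), were chosen after the data had been seen. Genes named are the members with the most extreme values in each comparison, the genes of the fixed lists, and the 3 most alike genes. Alternatives were batch in the fit, single batches, the first principal component, other array scalings and other probes.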

Additional observations from a re-analysis of the deposited data

Results flagged for a closer look

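The slope of the log10 ratio over mouse number differed between batch C and batch B, by a test of the difference of the slopes over all probes, for 20 of the 39 members, 3 with a higher and 17 with a lower slope in batch C. That is 51.3% of the members (7.69% higher and 43.6% lower), beside 34.9% of all probes (15.2% higher and 19.7% lower). Among named members the difference per 100 mouse numbers was -0.107 for Ndufa1, -0.0947 for Cox7b and -0.0937 for Atp5j2, whose slopes were below 0 in batch C and above 0 in batch B. It was 0.118 for Atp5c1 and 0.0424 for Ndufaf1, whose slopes were above 0 in batch C and below 0 in batch B. What the mouse number stands for is not given in the labels.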

How the results depend on the processing

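Of the single values, 235 kept their side of the threshold, 20 lost the call and 20 reversed. A change of sign was not counted where neither setting gave a call. Of the counts, 62 stayed within 1.5 times the first value, 13 moved further and 5 reversed their balance of higher and lower. Against the pool, 25 members differed without the fold threshold, 1 (Atp5c1) with array weights and 2 in batch C. Between forms 1 member was called with mouse number in the fit, and over the 3 batches 17. For the trend over mouse number, 4 members were called with batch in the fit and 17, 10 and 4 in batches C, B and A. Its reversed slopes were 0.00713 (batch in the fit), 0.0524 (A) and 0.0461 (B) for Atp5e, 0.00930, 0.0142 and 0.05001 for Cox8b in the same settings, 0.0328, 0.00165 and 0.0245 for Cox6a2 and 0.0541 in C, -0.00761 for Atp5a1 in C, -0.000886 (batch in the fit) and -0.0193 (B) for Ndufs1, and -0.0214 (A) and -0.0364 (B) for Atp5c1. With the first principal component in the fit, batch C minus batch A called 24, and the differences of Atp5e (0.00779), Cox8b (0.00344) and Ndufs1 (-0.00867) reversed. Members called with Ndufs1 numbered 18 in batch B, 8 in batch C and 26 with that component. Of all probes 20.1% rose and 26.5% fell with it in batch B. The shares were 14% and 16.7% in batch C, and 27.6% and 24.9% with that component. Separate levels were found for 7 members at 2 SDs and 0 at 4 SDs, with unequal variances or after centring. Of the listed pairs 3 were called in batch B. In single batches the r of Ndufs1 and Atp5a1 was -0.0483 (A) and that of Cox7a2 and Cox7a2l 0.271 (C). Single batches hold fewer mice. The cause of the other changes was not tested. No alternative could be run for complexes II and III, and no value is limited by read depth. The distance above background is not known for these ratios. No paired analysis was possible because all mice are in 1 group and their numbers only name them.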
